A study of Mus musculus with 4 samples.

Results

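The 10 genes described here encode the chaperones, co-chaperones, degradation factor and transcription factor that XBP1 and ATF6 switch on when unfolded proteins build up in the endoplasmic reticulum (ER). They were listed by name from this folding and degradation arm of the unfolded protein response by a rule that uses no measured value, though with earlier results of these data known, and each is represented by the probe set that the platform annotation pairs with its symbol. All 10 were measured, each by 1 probe set, out of 19505 named genes on the array. RNA came from MC38 cells, a mouse colon adenocarcinoma line, and was read on the Clariom S mouse array as 1 log2 signal per probe set.

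The 4 arrays hold 1 sample each. The controls are MC38 WT and MC38 MOCK, the empty vector condition, and the knockout samples are KO T5 clone 1 and KO T5 clone 2, in which CRISPR-Cas9 was aimed at Mgat5, the gene of a Golgi enzyme that branches N-glycans. Each knockout sample is 1 clone, neither control is titled as a clone, and cloning therefore cannot be told apart from the knockout. No label says whether the arrays came from separate cultures, so the spread between arrays may be technical, and with 1 array per sample fewer cells expressing a gene and less RNA per cell cannot be told apart. The series sets the knockout against the controls. Mgat5 itself was lower in both clones (7.46 and 7.57 log2 units) than in MOCK and WT (8.19 and 8.27), a difference of -0.71 as deposited (limma adjusted p = 0.631) and -1.11 after quantile normalization, and where its probes lie relative to the edit is not given in the sources here. The arrays were not on 1 scale: the upper quartile of signal was 8.87 log2 units in WT and 9.26 to 9.60 on the others, so the values of the 10 genes are given as deposited and after quantile normalization, which gives all 4 arrays the same distribution, and differences of neighbours and listed genes mainly on the latter scale. Of 10 epithelial markers 8 lay below the median of the negative control features on all 4 arrays, among them Epcam, Cdh1 and Cdx2, so the epithelial origin named by the label is not visible in these markers. Of 7 mesenchymal markers 4 were above that level on all arrays (Vim, Fn1, Cdh2 and Pdgfrb), while Col1a1 and Acta2 were below it on 3 arrays and Col1a2 on 2. Leukocyte and endothelial markers, 4 and 3 measured, were below that level on all arrays. So were 4 of 5 markers of plasma cells, whose secretory growth depends on XBP1, the exception being Sdc1, which epithelial and mesenchymal cells also express.

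In the unfolded protein response, 3 sensors of the ER membrane act in parallel. IRE1 splices the mRNA of Xbp1 into the form that encodes an active factor, ATF6 travels to the Golgi and is cut free by proteases, and PERK slows translation and raises ATF4. XBP1 and cleaved ATF6 bind ER stress elements in the promoters of chaperone genes, so that folding capacity follows the load of secretory protein. The array gives 1 signal for Xbp1 and does not tell its spliced from its unspliced mRNA.

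Promoter sequence was examined first, because the genes have such elements in common. RefSeq windows from 250 bases before to 50 bases after the start (assembly GRCm38.p6) were at hand for 9 of the 10 genes, all but Hyou1. The ER stress element (ERSE) was searched on both strands as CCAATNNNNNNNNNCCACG, and its variant ERSE-II as ATTGGNCCACG. Both contain the core CCACG. An ERSE was found in 4 of the 9 windows (Hspa5, Hsp90b1, Dnajc3 and Creld2), against 0.119% of all 32851 promoter windows of the same length. An ERSE-II was found in 2 (Dnajb11 and Herpud1), against 0.0365%. The genes were listed as targets of the factors that bind these elements. A share above that of all windows was therefore built into the choice and is not a result of these data. The core alone is common and stood in 8 of the 9 windows and in 32.8% of all. The windows of Dnajb9, Sdf2l1 and Xbp1 held neither full element, which says only that these letters are not in these windows. The 250 bases before the start are shown for 4 genes, Hspa5 as the classical case, Creld2 and Dnajc3 because they hold the same element but were high in different clones, and Sdf2l1 because its difference was the largest of the 10. Sequences read 5′ to 3′ on the gene's strand, with the ERSE in capitals. In Creld2 it lies on the opposite strand, so that the capitals read its reverse complement.
Hspa5 (chr2:34771840-34772089, plus strand): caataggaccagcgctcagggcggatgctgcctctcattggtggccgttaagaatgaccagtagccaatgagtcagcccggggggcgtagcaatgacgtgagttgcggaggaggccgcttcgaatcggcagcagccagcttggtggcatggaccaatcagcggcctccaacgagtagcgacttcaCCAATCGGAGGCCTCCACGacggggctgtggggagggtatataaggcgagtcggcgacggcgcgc
Creld2 (chr15:88819396-88819645, plus strand): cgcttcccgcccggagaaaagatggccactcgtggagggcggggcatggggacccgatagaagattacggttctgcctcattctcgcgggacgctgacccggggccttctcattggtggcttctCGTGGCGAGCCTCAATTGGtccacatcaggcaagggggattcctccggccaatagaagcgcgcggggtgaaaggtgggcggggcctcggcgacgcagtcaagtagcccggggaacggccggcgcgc
Dnajc3 (chr14:118937682-118937931, plus strand): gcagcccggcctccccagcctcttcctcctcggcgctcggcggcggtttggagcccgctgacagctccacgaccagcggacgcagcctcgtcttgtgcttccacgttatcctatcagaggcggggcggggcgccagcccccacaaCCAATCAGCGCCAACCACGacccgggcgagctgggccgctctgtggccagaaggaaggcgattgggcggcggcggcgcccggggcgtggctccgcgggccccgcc
Sdf2l1 (chr16:17132384-17132633, minus strand): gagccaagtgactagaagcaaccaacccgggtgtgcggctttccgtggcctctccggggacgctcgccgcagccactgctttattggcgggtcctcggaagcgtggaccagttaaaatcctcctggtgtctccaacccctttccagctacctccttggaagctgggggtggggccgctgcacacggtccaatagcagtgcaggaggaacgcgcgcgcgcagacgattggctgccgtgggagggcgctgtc

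**Figure D1:**
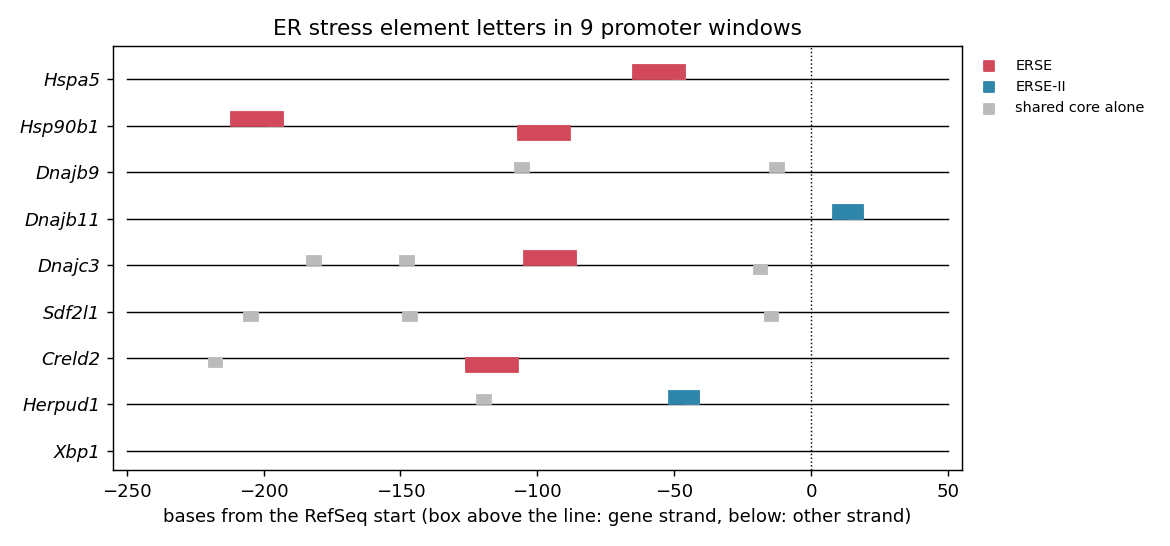
Position of ER stress element letters in the promoter windows of 9 of the 10 genes, in bases from the RefSeq start (x axis), 1 line per gene, with boxes above a line for the gene's strand and below it for the other. ERSE letters lie at -65 to -47 in Hspa5, at -126 to -108 in Creld2 and at -105 to -87 in Dnajc3, and Sdf2l1 has only 3 copies of the shared core.

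The genes did not rise as 1 block in the knockout. The mean of the clones was above the mean of the controls for all 10 as deposited, but for 8 after quantile normalization. The same held for 14460 of all 22206 probe sets as deposited and for 10723 after quantile normalization. The median difference was 0.73 log2 units on the first scale and 0.29 on the second, where all 22206 probe sets had medians of 0.18 and -0.02. Both clones stood above both controls for 3 of the 10 genes (Creld2, Herpud1 and Xbp1), a share near the 27.8% of all probe sets, and after quantile normalization for 2 (Herpud1 and Xbp1), near the 19.2% of all. None passed limma (0 of 10 at an adjusted p under 0.05), against 0.036% of all probe sets called higher, or 0.0045% after quantile normalization. At an unadjusted p under 0.05 limma had 3 members higher (Sdf2l1, Herpud1 and Xbp1), where 7.54% of all probe sets were, and after quantile normalization 1 of 10 (Herpud1), where 4.7% were, which is not a result about the members.

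The clones instead held different members high. In clone 1 the genes Sdf2l1, Creld2, Hyou1, Dnajb9, Dnajb11 and Hsp90b1 stood above both controls while clone 2 was near or below them. In clone 2 Dnajc3 stood above both controls while clone 1 was below them. Hspa5 was also above both controls in clone 2, with clone 1 between them as deposited and below them after quantile normalization. Herpud1 and Xbp1 were high in both. Clone 1 lay at least 1 log2 unit above clone 2 for 4 of the 10 genes as deposited and for 4 after quantile normalization (Hyou1, Dnajb9, Sdf2l1 and Creld2 on both scales), where 4.12% and 5.74% of all probe sets did. Clone 2 lay that far above clone 1 for 1 gene on both scales, Dnajc3, against 8.6% and 5.54%. Against the mean of the controls, clone 1 was at least 1 log2 unit up for 4 genes as deposited (6.31% of all probe sets) and for 3 after quantile normalization (3.94%), and clone 2 for 3 (11.8%) and 2 (5.41%). Differences between the clones rest on 1 array each and have no replicate check.

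**Figure D2:**
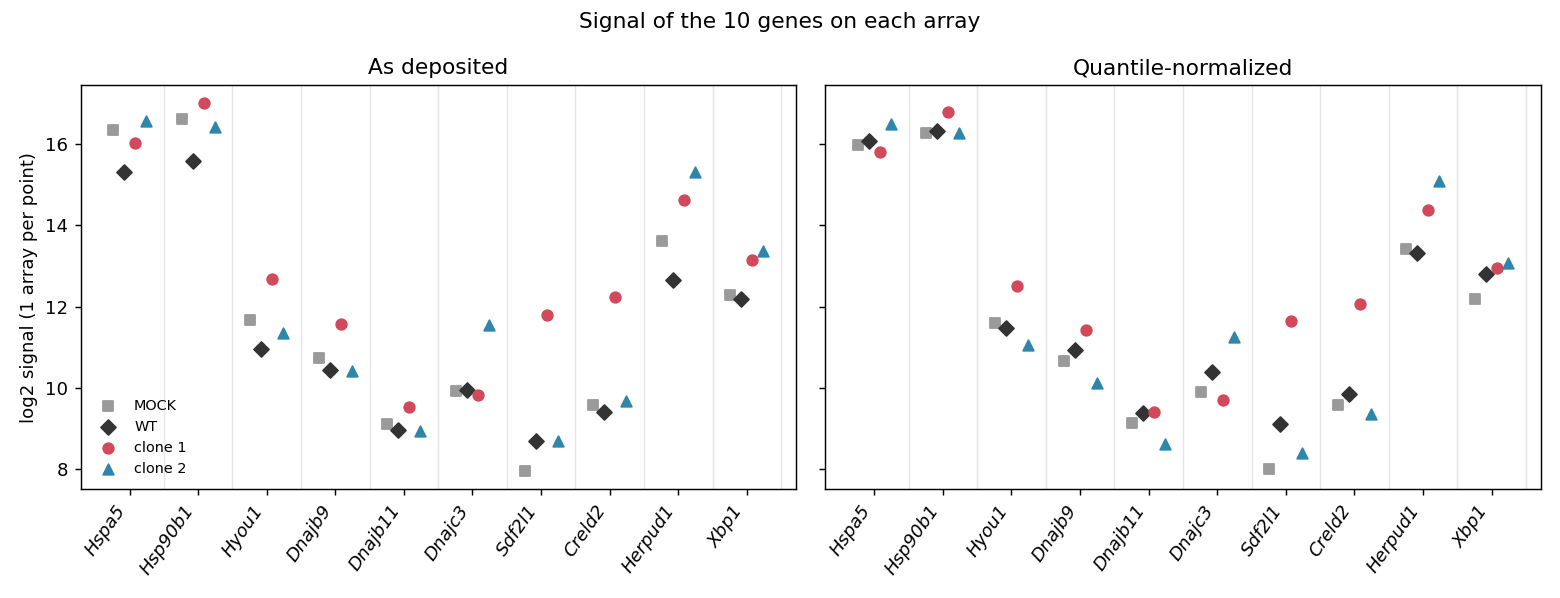
Log2 signal of the 10 genes (y axis) on each of the 4 arrays, 1 point per array, as deposited (left) and after quantile normalization (right). Sdf2l1 and Creld2 are far higher in clone 1 than on the other 3 arrays, Dnajc3 is higher in clone 2 alone, and Herpud1 is higher in both clones than in MOCK and WT.

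The lumenal chaperones come first. Hspa5, the HSP70 of the ER lumen known as BiP, which holds unfolded chains and keeps the stress sensors silent, had a signal of 16.34 log2 units (MOCK), 15.30 (WT), 16.01 (clone 1) and 16.57 (clone 2). Clone 1 lay between the controls, so the groups overlapped. The knockout mean was 0.47 log2 units higher (16.29 ± 0.39 against 15.82 ± 0.74, SD, n = 2 each, SE 0.45, limma adjusted p = 0.805). After quantile normalization, which brought MOCK and WT within 0.10 log2 units of each other, Hspa5 was 0.23 below the mean of the controls in clone 1 and 0.46 above it in clone 2. Hsp90b1, the HSP90 of the ER known as GRP94, stood at 16.62 (MOCK), 15.58 (WT), 17.00 (clone 1) and 16.42 (clone 2). Clone 1 was highest and clone 2 lay between the controls (difference of means 0.61, SE 0.45, limma adjusted p = 0.742). After quantile normalization clone 1 was 0.48 above the mean of the controls and clone 2 was level with it, at -0.01. Hyou1, the exchange factor that releases ADP from BiP, stood at 11.67 (MOCK), 10.95 (WT), 12.67 (clone 1) and 11.36 (clone 2). Clone 1 was highest, 2.48-fold above clone 2, and clone 2 lay between the controls as deposited. After quantile normalization clone 1 was 0.98 above and clone 2 0.47 below the mean of the controls, with clone 2 below both.

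The J proteins, which deliver clients to BiP and stimulate its ATPase, did not move together. Dnajb9 (ERdj4), which also holds IRE1 in its inactive state, stood at 10.73 (MOCK), 10.44 (WT), 11.57 (clone 1) and 10.43 (clone 2). Dnajb11 (ERdj3) showed the same order at smaller distances, with 9.11 (MOCK), 8.96 (WT), 9.52 (clone 1) and 8.94 (clone 2). For both genes clone 1 was the highest of the 4 arrays and clone 2 the lowest, though nearly level with WT. After quantile normalization the mean difference, knockout minus control, was -0.02 log2 units for Dnajb9 and -0.24 for Dnajb11, against 0.42 and 0.20 as deposited, so the sign turned with the scaling. Dnajc3 (p58IPK), which binds clients in the lumen and is known as an inhibitor of PERK, had the opposite order. Its signal was 9.92 (MOCK), 9.94 (WT), 9.82 (clone 1) and 11.55 (clone 2). The controls lay within 0.03 of each other, clone 1 was just below them and clone 2 was 3.07-fold above their mean, or 2.14-fold after quantile normalization. Dnajc3 and Creld2, whose windows both hold the ERSE letters shown above, lay on opposite sides between the clones, on 1 array each. The part of the element in either signal was not tested.

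Sdf2l1, which binds ERdj3 and keeps BiP clients from aggregating, gave the widest separation. Its signal was 7.96 (MOCK), 8.71 (WT), 11.79 (clone 1) and 8.70 (clone 2). Clone 1 was 11.0-fold above the mean of the controls and clone 2 lay between MOCK and WT, so the groups overlapped. After quantile normalization clone 1 was 8.49-fold above the controls and 9.50-fold above clone 2, while MOCK and WT differed by 1.11 log2 units from each other. With all 4 arrays the difference of 1.91 log2 units did not pass (SE 0.79, limma adjusted p = 0.529), nor did the 1.46 after quantile normalization (limma adjusted p = 0.67). It passed without clone 2 (3.46, adjusted p = 0.000925), where clone 1 alone is set against the controls and is assumed to vary as they do, and where 149 probe sets were called against 9 with all arrays. It also passed when probe sets under the median of mean signal were left out (adjusted p = 0.0354) and with a trended, robust prior (adjusted p = 0.0245), and over all alternatives the adjusted p ran from 0.000925 to 1.00. Without clone 1 the difference was 0.36. Sdf2, its paralog, which is known as a housekeeping gene rather than a stress target, stood at 6.88 (MOCK), 6.64 (WT), 7.33 (clone 1) and 6.89 (clone 2), and clone 1 was 0.30 above the controls after quantile normalization.

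Creld2, an EGF-like ER protein with disulfide isomerase activity, followed Sdf2l1. Its signal was 9.58 (MOCK), 9.41 (WT), 12.23 (clone 1) and 9.68 (clone 2). Both clones were above both controls as deposited, but clone 2 was little higher than MOCK, and after quantile normalization clone 2 was the lowest of the 4 arrays. Clone 1 was 6.64-fold above the mean of the controls, or 5.08-fold after quantile normalization. The mean difference was 1.46 (SE 0.67, limma adjusted p = 0.575), or 0.99 after quantile normalization (limma adjusted p = 0.727), and without clone 2, again with clone 1 alone against the controls, it was 2.73 (limma adjusted p = 0.00702, and 0.00702 to 1.00 over all alternatives). Among the markers of other cell types, the plasma cell list was ordered like Sdf2l1 and Creld2 between the clones, with summed levels of 10.53 (MOCK), 10.42 (WT), 11.60 (clone 1) and 10.08 (clone 2) log2 units, set by Sdc1, while its other 4 markers, Jchain, Mzb1, Prdm1 and Irf4, were below the negative controls on every array.

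Herpud1 and Xbp1 were the 2 members with both clones above both controls on either scale. Herpud1, a membrane scaffold of the HRD1 ubiquitin ligase that draws misfolded proteins to degradation, stood at 13.61 (MOCK), 12.65 (WT), 14.61 (clone 1) and 15.30 (clone 2). The knockout mean was 3.55-fold higher (14.96 ± 0.49 against 13.13 ± 0.67, SD, n = 2 each, SE 0.45, limma adjusted p = 0.237, unadjusted p = 0.00206). After quantile normalization the controls were 13.42 and 13.32 and the clones 14.37 and 15.08, a mean 2.56-fold higher (limma adjusted p = 0.384). The order of the clones, clone 2 over clone 1, was the reverse of that of Sdf2l1 and Creld2, and without clone 1 the difference was 2.17 log2 units (limma adjusted p = 0.0236, and 0.0236 to 1.00 over all alternatives). In that fit clone 2 alone is set against the controls, which supply all of the spread, and 529 probe sets were called. Xbp1, the bZIP factor of the IRE1 arm, stood at 12.29 (MOCK), 12.18 (WT), 13.15 (clone 1) and 13.36 (clone 2). The groups did not overlap, and the knockout mean was 2.02-fold higher (13.25 ± 0.15 against 12.23 ± 0.08, SD, n = 2 each, SE 0.37, limma adjusted p = 0.468). After quantile normalization WT stood at 12.79, just below clone 1 at 12.96, and the difference of means was 0.52 log2 units. The 2 clones had near equal Xbp1 signals, 0.21 log2 units apart as deposited and 0.11 after quantile normalization, while Sdf2l1 and Creld2 differed between the same arrays by 3.10 and 2.55 as deposited.

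**Figure D3:**
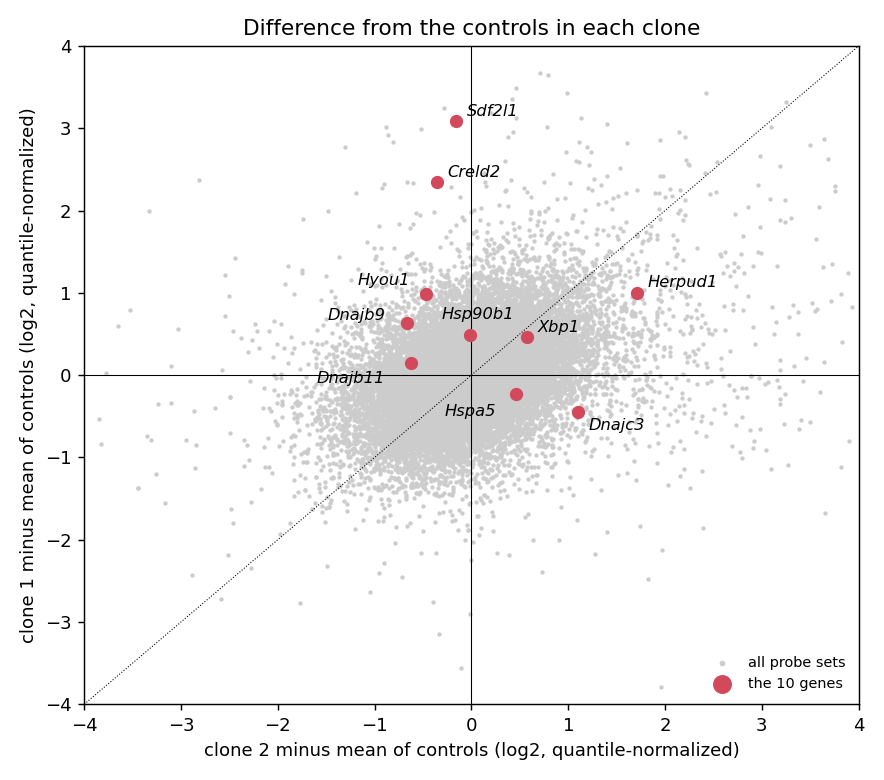
Difference from the mean of the controls in clone 2 (x axis) and clone 1 (y axis), in log2 units after quantile normalization, for the 10 genes (red) and all probe sets (grey, with 36 probe sets outside the axes). The dotted line marks equal differences: Sdf2l1 (3.09 in clone 1, -0.16 in clone 2) and Creld2 (2.34, -0.36) lie far above it, and Dnajc3 (-0.44, 1.10) lies below it.

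Likeness between genes was measured as the Euclidean distance over the 4 arrays between quantile-normalized profiles centred on each gene's mean, against 9656 other named genes (predicted gene models and clone names left out) with a mean signal at or above the median. For Sdf2l1 the nearest genes were Tinagl1, Ptprq, Eomes, H1f2 and Creld2, the last of these at a distance of 0.84 log2 units. Ptprq stood at 4.53 (MOCK), 4.87 (WT), 7.94 (clone 1) and 4.41 (clone 2) after quantile normalization. Only its clone 1 value exceeded the medians of the negative controls, which were 5.12 to 5.22 as deposited. For Creld2, Sdf2l1 came in place 25. Hyou1 had Dnajb9 in place 93, and for the other 7 genes the nearest member came in place 224 or later. A place depends on how many genes lie near a profile. Hyou1 and Dnajb9 were 0.39 log2 units apart, and Dnajb11 and Dnajb9 0.43, at place 1069 for Dnajb11. Both pairs were nearer than Sdf2l1 and Creld2, so the places are no measure of shared regulation. The genes nearest to Hspa5 were Atxn1l, Gabarap, Odf2l, Txlna and Sass6, at 0.06 to 0.07 log2 units, and those nearest to Xbp1 were Sh3rf1, Hap1, Calhm5, Ndrg3 and Kctd7, at 0.03 to 0.08.

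Genes next to each member on its chromosome were then compared, a check added after the values were seen, with the 3 nearest measured genes on each side in RefSeq order. For Sdf2l1 the 6 neighbours differed from the controls in clone 1 by -0.63 to 0.19 log2 units after quantile normalization, so that none was near its 3.09, though 3 of the 6 had a group below the negative controls. For Creld2 the neighbours ran from -0.43 to 1.42, the highest being the kinase gene Pim3, with a median of -0.21. Alg12, the mannosyltransferase gene next to Creld2 on the other side, whose window holds an ER stress element, was 0.55 in clone 1 and 0.62 in clone 2. Whether its element is made of the same letters as that of Creld2 was not examined. For Herpud1 they ran from -0.27 to 0.33 in clone 1 and from -0.24 to 0.54 in clone 2, and for Xbp1 from -1.06 to 0.29 and from -1.02 to 0.33.

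Hspa5 lay among genes that were low in clone 1. All 6 neighbours on chromosome 2 were at least 1 log2 unit below the controls there after quantile normalization, a step that 3.03% of all probe sets took. Gapvd1, next to Hspa5 on one side, was -2.90 in clone 1 and -0.01 in clone 2, and Rabepk, next to it on the other side, was -1.71 and 0.06. Mapkap1, Fbxw2 and Psmd5 were -2.17, -1.71 and -2.45 in clone 1, and -0.37, -0.20 and -0.72 in clone 2, and Pbx3 was low in both clones, at -1.12 and -1.35. Hspa5 itself was at -0.23 in clone 1, the smallest deviation within this stretch. From the fourth gene outward on either side the differences in clone 1 lay between -0.81 and 0.92. The part of this stretch in the Hspa5 signal of clone 1 was not tested. The neighbours of Dnajc3 on chromosome 14 also differed between the clones, in another way. Dzip1 and Uggt2, a glycoprotein folding sensor, were 1.01 and 0.97 above the controls in clone 2 and -1.38 and -0.95 in clone 1. Abcc4, a further neighbour, was 1.32 and -0.51. Unlike Hspa5, Dnajc3 lay on the same side as these neighbours in each clone, at 1.10 and -0.44. Its 3 other neighbours had a group below the negative controls. Whether the neighbourhood bears on the Dnajc3 signal was not tested.

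**Figure D4:**
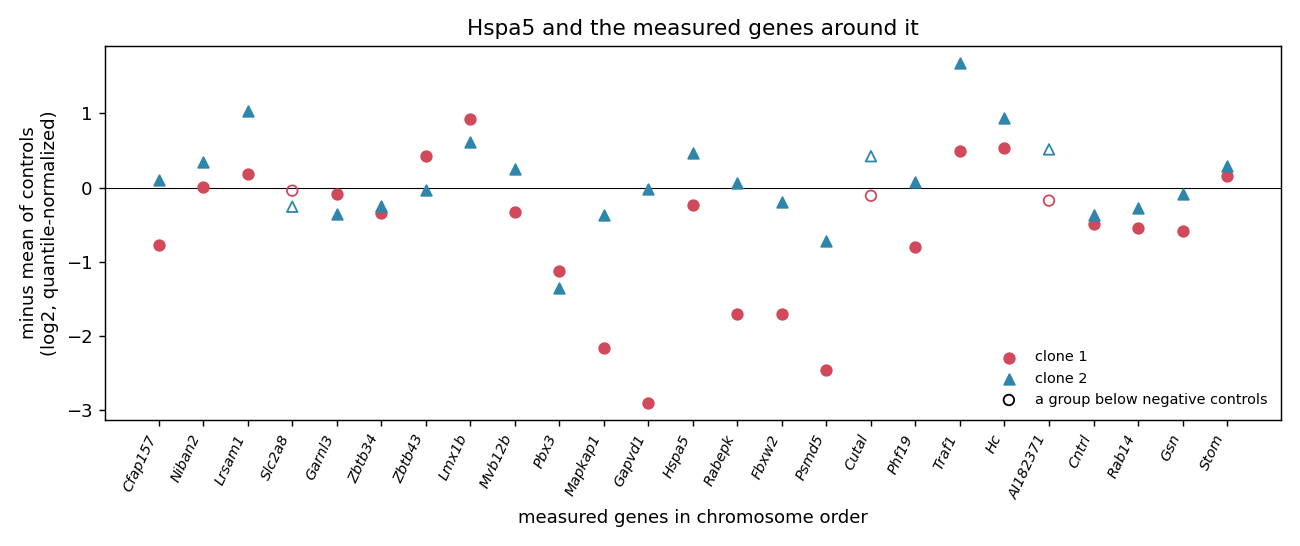
Difference from the mean of the controls, in log2 units after quantile normalization (y axis), for Hspa5 and the 12 measured genes on each side in chromosome order (x axis), in clone 1 and clone 2. Open symbols mark genes of which a group did not reach the negative control level. In clone 1 the 6 genes around Hspa5 lie between -1.12 and -2.90, while Hspa5 lies at -0.23.

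Other genes of ER folding were followed through lists of related function, each without the 10 members. No listed gene passed limma over all probe sets (0 called), and the counts of genes with both clones above both controls are to be read beside the 27.8% of all probe sets as deposited and 19.2% after quantile normalization. Of 10 sensors, processing proteases and ER factors 7 were higher in both clones as deposited and 6 after quantile normalization, with a median difference of 0.52 on the latter scale. Atf6b, a relative of ATF6, had signals of 12.49 (MOCK), 11.86 (WT), 13.07 (clone 1) and 13.48 (clone 2). The sensor genes and the protease that makes the first cut in ATF6 were named after their values were seen. Atf6 had signals of 10.28 (MOCK), 9.90 (WT), 11.01 (clone 1) and 10.92 (clone 2), and Mbtps1, the protease, 10.14 (MOCK), 9.81 (WT), 10.84 (clone 1) and 11.13 (clone 2), both above both controls in both clones on either scale. Ern1, which encodes IRE1, and Eif2ak3, which encodes PERK, differed by 0.15 and 0.04 after quantile normalization, with overlapping groups. The largest differences in the list were -1.37 for Creb3l2 and 1.03 for Creb3, both membrane-bound bZIP factors. On chromosome 4, 3 of the 6 neighbours of Creb3 were also at least 1 log2 unit up in clone 1. They include Msmp, of which a group lay below the negative controls. Ern2, also named by the rule, stood below the negative controls on all 4 arrays.

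The disulfide isomerases and oxidases came closest to the pattern of Sdf2l1 and Creld2. Their median difference from the controls after quantile normalization was 0.64 in clone 1 and 0.05 in clone 2, and 11 of the 14 genes were higher in clone 1 than in clone 2, where 50.6% of all probe sets were (10 of 14 and 41.1% as deposited). Pdia5 stood at 7.97 (MOCK), 7.72 (WT), 9.56 (clone 1) and 8.45 (clone 2), and outside the naming rule, chosen after their values were seen, Pdia3 at 14.59, 13.80, 15.51 and 14.38 and Pdia6 at 15.32, 14.38, 16.08 and 15.22. Pdia5 was above both controls in both clones, with clone 1 well above clone 2, and Pdia3 and Pdia6 were highest in clone 1 with clone 2 between the controls. Txndc11 and the oxidases Ero1b and Ero1a, which reoxidise the isomerases, were above both controls in both clones on either scale, with differences of 1.46, 1.20 and 0.68 after quantile normalization (limma adjusted p = 0.189, 0.274 and 0.42 as deposited). Of the 14 genes, 4 had both clones above both controls on that scale, against 7 as deposited.

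Cofactors of BiP and GRP94 and the prolyl isomerases had 14 of 19 genes higher in clone 1 than in clone 2 on both scales, beside the same 50.6% and 41.1% of all probe sets, and, after quantile normalization, median differences of 0.31 in clone 1 and -0.0026 in clone 2. Cnpy3, a partner of GRP94, differed by 1.56, Fkbp11 by 0.91 and Fkbp7 by 0.88, each with both clones above both controls as deposited, and the controls of Cdnf lay below the negative control level. In the list for degradation the balance between the clones was even, with 9 of 16 genes higher in clone 1 and medians of 0.13 and 0.32 in clone 1 and clone 2. Derl1, a channel component, at 1.04, Vcp, the ATPase that extracts clients, at 0.85 and Aup1, a scaffold, at -0.78 differed most between the groups after quantile normalization, apart from Derl3, whose controls lay below the negative controls. The 6 neighbours of Vcp, also on chromosome 4, ran from 0.13 to 1.80 in clone 1 and from -0.25 to 0.75 in clone 2. A group lay below the negative controls for 3 of them. The HRD1 ligase gene Syvn1 stood at 10.20 (MOCK), 10.13 (WT), 10.86 (clone 1) and 11.32 (clone 2), named after its values were seen, and was ordered between the clones as Herpud1 was.

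The lectin chaperone cycle, which folds glycoproteins, had medians after quantile normalization of 0.11 in clone 1 and 0.15 in clone 2 over 15 genes. Edem2 differed by 0.58, Mogs by 0.46, Calr, the lumenal lectin, by 0.44 and Lman1, a cargo receptor, by -0.40. Translocation and signal peptide processing had medians of 0.13 and -0.20 over 23 genes, with Srp68 at 0.71, Ssr4 at -0.69, Tram1 at -0.56 and Sec61g at -0.41, and traffic between ER and Golgi medians of 0.12 and 0.08 over 20 genes, with Sar1b at 1.54, Arfgap3 at 0.85, Sec24d at -0.54 and Golgb1 at -0.50. Cytosolic and mitochondrial chaperones, which answer to heat shock rather than ER stress, had medians of 0.11 and 0.03 over 16 genes, with Hspa1b at 0.80, Hspa4l at -0.57, Hspe1 at 0.42 and Hspa9 at 0.40. As deposited these 4 lists had medians of 0.43 to 0.54 for knockout minus control, beside 0.18 for all probe sets and 0.73 for the 10 members. A tilt to clone 1 was not particular to the isomerases and BiP cofactors. After quantile normalization clone 1 was above clone 2 for 16 of 23 translocation genes and 11 of 16 cytosolic and mitochondrial chaperones. It was so for fewer in the lectin cycle (6 of 15), traffic (7 of 20), sensor (4 of 10) and PERK-ATF4-CHOP (8 of 20) lists. The share was 6 of 10 for the members and 50.6% for all probe sets.

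**Figure D5:**
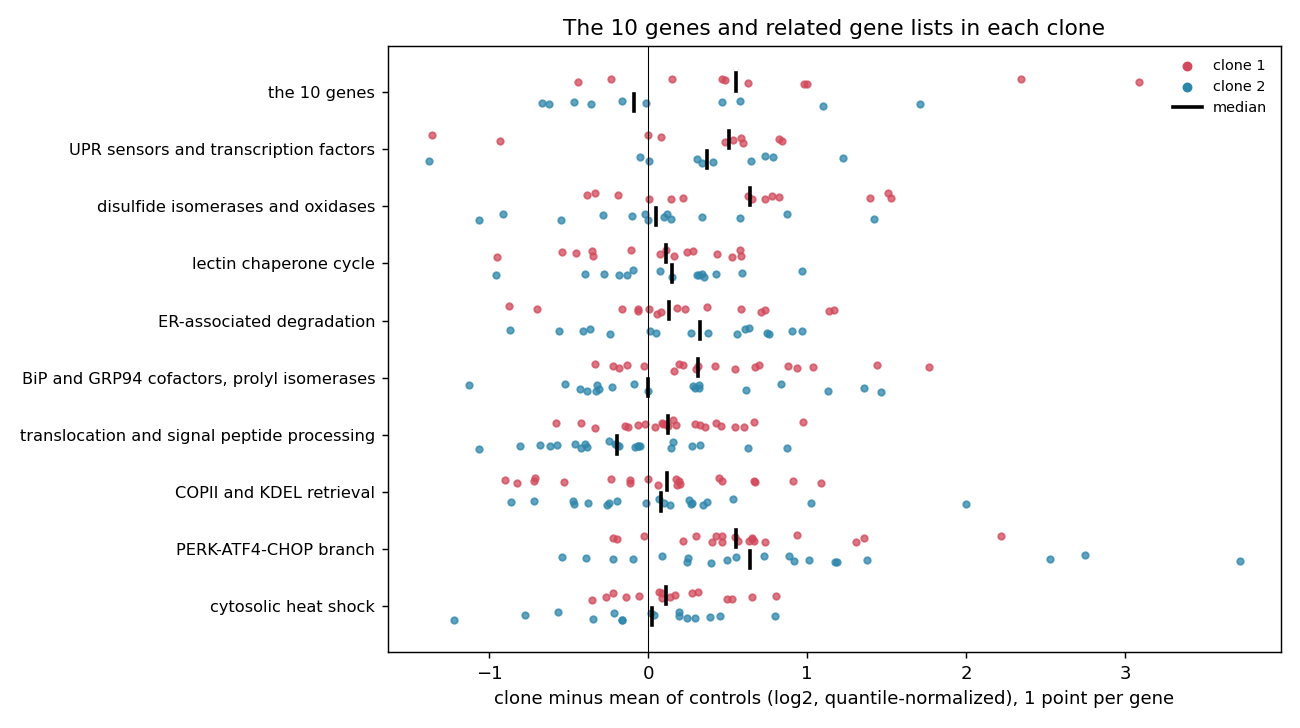
Difference from the mean of the controls in log2 units after quantile normalization (x axis) for each gene of the 10 and of the 9 related lists (rows), with clone 1 in red above clone 2 in blue and black bars at the medians. The 10 genes have medians of 0.56 in clone 1 and -0.09 in clone 2, the disulfide isomerases 0.64 and 0.05, and the PERK-ATF4-CHOP branch 0.55 and 0.64.

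The PERK-ATF4-CHOP branch, which governs amino acid supply and cell death under stress, had near equal medians in the clones. Of its 20 genes, 11 had both clones above both controls after quantile normalization, with medians of 0.55 in clone 1 and 0.64 in clone 2, and Nupr1, Chac1, Ddit3 and Ppp1r15a were highest in clone 2, the last with controls below the negative controls. The difference between this branch and the 10 genes was not tested.

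Genes outside the 10 that hold an ERSE or ERSE-II in their window were looked at as well, since sequence and not signal chose them. There were 43 such genes, of which 31 were measured and 20 were not below the negative controls on all 4 arrays. Among the 31, clone 1 was above both controls for 20 and clone 2 for 19 after quantile normalization, beside 35.1% and 35.9% of all probe sets. Their median differences were 0.30 in clone 1 and 0.33 in clone 2. Among the 20 not below the negative controls on all arrays the counts were 13 and 12, with medians of 0.40 and 0.27. Some of the 31 belong to 1 gene family and may not count as separate genes. In Esp15, Esp16, Esp18 and Esp36 clone 1 was above both controls each time. In Xlr3a, Xlr3b and Xlr3c clone 2 was above both controls, and clone 1 was not. Esp36 and the Xlr3 genes are also among the 20. Some of the genes, such as Calr, Canx, Pdia6, Ero1b and Syvn1, are also in the lists above and are not a separate set. At least 1 log2 unit was reached by 2 of the 31 genes in clone 1, the oxidase gene Ero1b at 1.53 and Spats2l at 1.15 (-1.25 in clone 2). In clone 2 it was reached by 1, Calr4, which was below the negative controls on all arrays. Of all probe sets 3.94% in clone 1 and 5.41% in clone 2 reached this step, so these counts are not a result about the genes. The calcium-binding protein gene Nucb1 stood at 12.98 (MOCK), 12.03 (WT), 13.88 (clone 1) and 13.66 (clone 2). Of the lectin chaperones, Calr was above both controls in both clones, at 0.52 in clone 1 and 0.35 in clone 2, and Canx was at 0.07 and 0.15.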

How the data were processed

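RNA of 4 samples was read on the Clariom S mouse array. The authors deposited 1 normalized log2 signal per feature and array, made with the Transcriptome Analysis Console per the submitters' processing notes. The log2 scale was read from the range of the values. The sources used here give neither its version nor the normalization. Of 28846 features, 6640 control features were left out and 22206 probe sets were kept with no filter. Symbols came from the platform annotation, and all 19572 annotated probe sets matched the RefSeq table of GRCm38.p6 by Entrez identifier. RefSeq also gave gene order and promoter windows. Groups came from the sample titles, since a cell label names the knockout on all 4 samples.

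Knockout minus control was tested with limma 3.58.1 (R 4.3.3, lmFit and eBayes) on all 22206 probe sets, with Benjamini-Hochberg adjustment, after a check on simulated data. Single clones have no test. Neighbour genes and other genes with promoter elements were added after values were seen. The number of arrays limits the precision, and p-values measure only the spread between these arrays. All 10 members are named, plus up to 4 genes per list with the largest difference after quantile normalization and any called gene. No fold is given where a group lies below the median of the negative controls. Members, lists and the step of 1 log2 unit were chosen with earlier results of these data known. Alternatives were quantile normalization, median centring, filters at the 25th percentile and at the median of mean signal, a trended and robust eBayes, the mean of a gene's probe sets, and each array left out in turn.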

Additional observations from a re-analysis of the deposited data

Results flagged for a closer look

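Members for which 1 clone stood above both controls and the other below both are given here as values. Each clone is 1 array, so the difference between the clones was not tested. As deposited, clone 1 minus clone 2 was 1.14 log2 units for Dnajb9, 0.59 for Dnajb11 and -1.73 for Dnajc3. After quantile normalization it was 1.45 for Hyou1, 1.30 for Dnajb9, 0.77 for Dnajb11, 2.70 for Creld2, -1.54 for Dnajc3 and -0.70 for Hspa5.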

How the results depend on the processing

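The number of probe sets called was 9 with all arrays as deposited, 1 after quantile normalization, 125 and 196 with the filters at the 25th percentile and at the median of mean signal, 340 with eBayes with trend and robust, and 0 to 529 with 1 array left out, the lowest without WT and the highest without clone 1 (149 without clone 2, 1 without MOCK). Members with both clones above both controls numbered 3 as deposited and 4 to 8 with 1 array left out, where fewer arrays have to be ordered. They were 6 without MOCK, 4 without WT, 5 without clone 1 and 8 without clone 2. Of all 22206 probe sets, 11092 met this without clone 1 and 9089 without clone 2, so the background rises as well. The background without MOCK or without WT was not counted. The median member difference of 0.73 log2 units became 0.29 after quantile normalization and 0.34 to 1.07 with 1 array left out. Of 100 differences of single members under the alternatives, 89 kept their direction and their side of the threshold, 5 passed it and 6 turned sign. The sign turned for Dnajb11 (-0.24) and Dnajb9 (-0.020) after quantile normalization and, with 1 array left out, for Dnajb11 without clone 1 (-0.092, range to 0.49), Dnajb9 without clone 1 (-0.15, range to 0.99), Dnajc3 without clone 2 (-0.11, range to 1.62) and Hspa5 without WT (-0.051, range to 0.99). The cause was not tested. Each gene had 1 probe set, so averaging probe sets changed no member. All 10 genes lay well above the negative controls (medians of 5.12 to 5.22 log2 units).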
